A study of Homo sapiens with 4 samples.

Results

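The INhibitor of Growth genes, ING1 to ING5, were examined on arrays of MIA PaCa-2 cells, an established human pancreatic carcinoma line, with and without an added copy of ING3. All probe sets that the array annotation assigns to one of these symbols alone were taken, which gave 17 of the 54675 probe sets in the table: 4 for ING1, 2 for ING2, 4 for ING3, 2 for ING4 and 5 for ING5. A probe set is the group of short probes from which the array derives 1 signal for 1 transcript or set of transcripts.

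ING proteins carry a C-terminal PHD finger, a zinc-binding fold that recognises histone H3 trimethylated on lysine 4, and they bring histone-modifying enzymes to chromatin marked in this way. ING3 is a subunit of the TIP60/NuA4 histone acetyltransferase complex, ING1 and ING2 belong to SIN3-HDAC deacetylase complexes, ING4 to HBO1 acetyltransferase complexes and ING5 to HBO1 and MOZ/MORF acetyltransferase complexes. The family was named for growth arrest on overexpression, and its members are described as tumour suppressors that act in part with p53.

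The ING3 group held 2 arrays (a and b) of cells carrying a FLAG-ING3 lentivirus, with the full-length ING3 sequence in a CMV/TO puromycin vector. The control group held 2 arrays (a and b) of cells carrying a GFP lentivirus. Stably transfected cells were selected in both groups, which the labels call clones without giving their number, and were grown to about the same confluence in serum. The design text names the arrays of a group technical duplicates, so the p-values set each difference against the spread between duplicates of 1 cell population per group and not against the spread between cultures.

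The values were MAS5 signals, a linear brightness scaled to the same trimmed mean of 500.1 on each array, and the number of arrays limits their precision. Median signals were 64.8 to 66.9 on the ING3 arrays and 69.4 to 76.0 on the control arrays, and the 3′ over 5′ ratio of the ACTB control probes, which rises as RNA degrades, was 2.03 to 2.05 on the ING3 arrays and 1.80 to 2.58 on the control arrays. The carcinoma keratins KRT8, KRT18 and KRT19 were bright in all 4 arrays, and KRT8 and KRT19 rose in ING3 cells, with log2 differences of 0.32 and 0.52 (adjusted p = 0.033 and 0.0078 by limma), while the epithelial adhesion genes EPCAM and CDH1 lay under the brightness filter, with mean signals of 21.0 and 7.33 in ING3 cells against 31.9 and 10.9 in control cells. The mesenchymal marker VIM was bright too, at 24294 and 26668 on the ING3 arrays, against 27676 and 25627 on the control arrays. CDH2, another mesenchymal marker, lay under the brightness filter, with mean signals of 33.8 in ING3 cells and 9.61 in control cells. Of the 2 acinar and 3 endocrine pancreas markers with a probe set, 0 passed that filter. Of 4 fibroblast, 3 leukocyte and 3 endothelial markers, 3, 1 and 2 passed. The summed fibroblast signal was 1628 to 1704 on the ING3 arrays and 1703 to 1792 on the control arrays. Most of it was COL3A1, at 1289 and 1410 on the ING3 arrays, whose groups overlapped, as did those of DCN. COL1A1 was lower on the ING3 arrays, at 234 and 181 against 274 and 288 on the control arrays. LUM, under the filter, was higher, at 48.6 and 28.5 against 7.30 and 5.10.

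The transcript of the added gene was measured by 4 probe sets, and the brightest of them was higher in the ING3 cells. Probe set 205070_at, which the annotation ties to a curated RefSeq transcript of ING3, had signals of 521 and 541 on the ING3 arrays, against 338 and 373 on the control arrays. Both ING3 arrays lay above both control arrays, and the difference was larger than the gap between duplicates in either group. The means were 531 ± 14.5 in ING3 cells and 356 ± 24.9 in control cells (SD, n = 2 each), a 1.49-fold higher signal in ING3 cells.

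Tested among all genes, this difference of ING3 did not pass. In the gene fit, in which each gene is read by its brightest probe set, the log2 difference was 0.58, with a 95% interval of 0.28 to 0.88 (SE 0.13, limma adjusted p = 0.071), and the interval on the fold scale was 1.21 to 1.84. ING3 stood at place 228 of 12190 tested genes by the size of the increase and at place 292 by p. Of the tested genes, 1.50% were called at an adjusted p under 0.05. That count, 183 genes, moved with the processing: 2 genes were called without control array a and 2 without control array b, 305 without ING3 array a, and 0 by eBayes without an intensity trend (1686 at an unadjusted p under 0.05). When a gene was read instead by the mean log2 of all its probe sets, the ING3 difference was 0.23 (adjusted p = 0.66 by limma). That mean takes in 230719_at, which lay under the brightness filter with a log2 difference of 0.50.

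The increase was not seen on the next 2 ING3 probe sets by brightness and was undecided on the dimmest. Probe set 242293_at had signals of 261 and 222 on the ING3 arrays, against 287 and 261 on the control arrays. Both ING3 arrays were lower than both control arrays, the upper one by less than 1 signal unit, and the log2 difference was -0.19 (95% interval -0.59 to 0.22, adjusted p = 0.65 by limma over all probe sets). With 1 array left out at a time it lay between -0.30 and -0.073.

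Probe set 231863_at had signals of 180 and 162 on the ING3 arrays, against 154 and 186 on the control arrays. The groups overlapped fully, with a log2 difference of 0.018 (95% interval -0.48 to 0.52). The dimmest, 230719_at, had 57.6 and 23.9 on the ING3 arrays and 27.1 and 25.1 on the control arrays. It lay under the brightness filter (a signal of about 64.6) and was not tested, and 1 ING3 array was above and the other below both control arrays. Its log2 difference was 0.50, and its ING3 duplicates lay 1.23 log2 units apart.

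**Figure D1:**
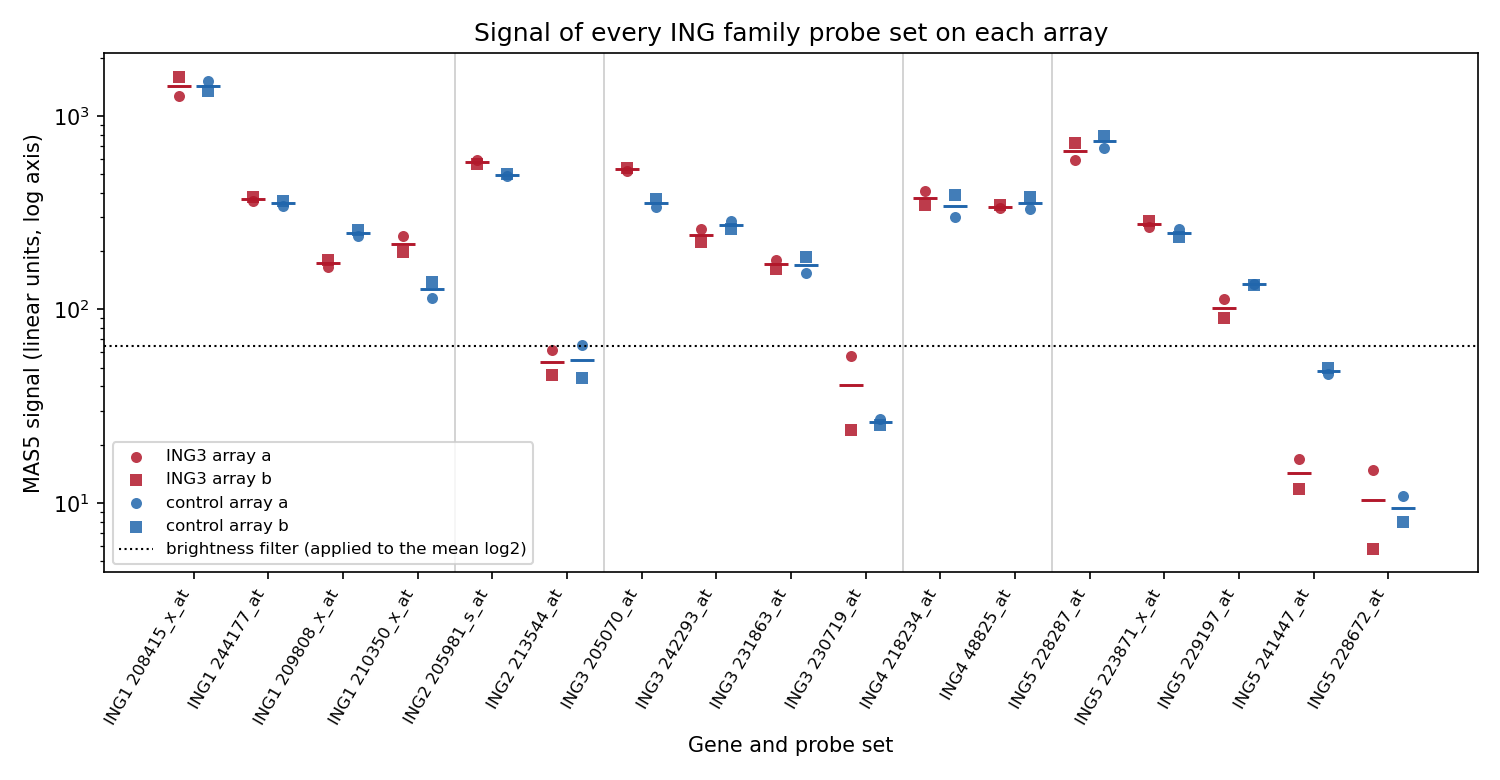
MAS5 signal (log axis) of the 17 ING family probe sets on each of the 4 arrays, with ING3 arrays in red on the left and control arrays in blue on the right of each position; horizontal lines are means of 2 arrays, and the dotted line is the brightness filter of 64.6. The groups stand apart for the brightest ING3 probe set, with 521 and 541 against 338 and 373, and overlap for 231863_at.

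The annotation ties the 3 other ING3 probe sets to GenBank records rather than to a RefSeq transcript, and RefSeq lists 2 curated ING3 transcripts. Which of the probe sets lie within the sequence that the lentivirus carries was not given in the sources used here, and neither was whether that sequence holds untranslated regions, so the share of transgene and endogenous transcript in each signal was not tested.

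The ratio of 2 probe sets on the same array shows whether they moved apart, with errors that scale the whole array largely removed. Errors that change with brightness are not removed by it. After quantile normalization the log2 differences were 0.66 for 205070_at, -0.079 for 242293_at and 0.15 for 231863_at. The log2 ratio of 205070_at to 242293_at was 1.00 and 1.28 on the ING3 arrays, against 0.23 and 0.51 on the control arrays. The log2 ratio of 205070_at to 231863_at was 1.52 and 1.73 on the ING3 arrays, against 1.13 and 1.00 on the control arrays. Both ratios were thus higher on both ING3 arrays, by 0.76 and 0.56 on the log2 scale. The ratio between the 2 dimmer probe sets, 242293_at to 231863_at, was 0.53 and 0.45 on the ING3 arrays, against 0.90 and 0.49 on the control arrays, and its groups overlapped. The log2 ratio of 205070_at to the dim 230719_at was 3.15 and 4.44 on the ING3 arrays, against 3.59 and 3.84 on the control arrays, which overlapped, with a difference of 0.082 (exact two-sided permutation p of 1).

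With 2 arrays against 2, the exact two-sided permutation test cannot give a p below 0.333, which both ratios that stood apart reached. Among the 13 pairs of tested probe sets of one ING gene, 9 ratios stood apart between the groups, beside 41.2% of all 17899 such pairs over all genes; pairs of one gene share probe sets, and no test was made of this share. ING3 had a spread of 0.76 between the log2 differences of its 3 tested probe sets. Among the 1587 genes with 3 tested probe sets the median spread was 0.32, and 92.1% had a smaller spread than ING3.

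ING1, a subunit of SIN3-HDAC complexes with 5 curated RefSeq transcripts, had the widest disagreement between tested probe sets in the family. Its brightest probe set, 208415_x_at, had signals of 1275 and 1599 on the ING3 arrays, against 1513 and 1352 on the control arrays. The groups overlapped, and the log2 difference was -0.0024 (SE 0.11, 95% interval -0.26 to 0.25 in the gene fit, adjusted p = 0.99 by limma). That interval allows changes from 0.84-fold to 1.19-fold.

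A further pair of ING1 probe sets differed in opposite directions. Probe set 210350_x_at had signals of 239 and 198 on the ING3 arrays, against 115 and 139 on the control arrays, a 1.72-fold higher level in ING3 cells. Probe set 209808_x_at had 167 and 179 on the ING3 arrays, against 241 and 257 on the control arrays, a 1.44-fold lower level in ING3 cells. Neither pair of groups overlapped.

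The log2 differences of these probe sets were 0.78 (95% interval 0.26 to 1.30, adjusted p = 0.18 by limma over all probe sets) and -0.52 (95% interval -0.96 to -0.092, adjusted p = 0.25 by limma). Neither was called. The log2 ratio of 209808_x_at to 210350_x_at was -0.52 and -0.15 on the ING3 arrays, against 1.06 and 0.88 on the control arrays, so this ratio was lower in ING3 cells, with a difference of -1.31. Both belong to the _x_at kind, whose probes can also bind other transcripts; which transcripts contribute was not tested.

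Probe set 244177_at, the ING1 probe set outside that kind, had 365 and 382 on the ING3 arrays, against 342 and 365 on the control arrays. The ING3 arrays were both higher, the lower of them by less than 1 signal unit, and the log2 difference was 0.080 (95% interval -0.24 to 0.40). The spread of 1.31 between the differences of the 4 ING1 probe sets was larger than that of 97.6% of the 635 genes with 4 tested probe sets, whose median was 0.43.

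**Figure D2:**
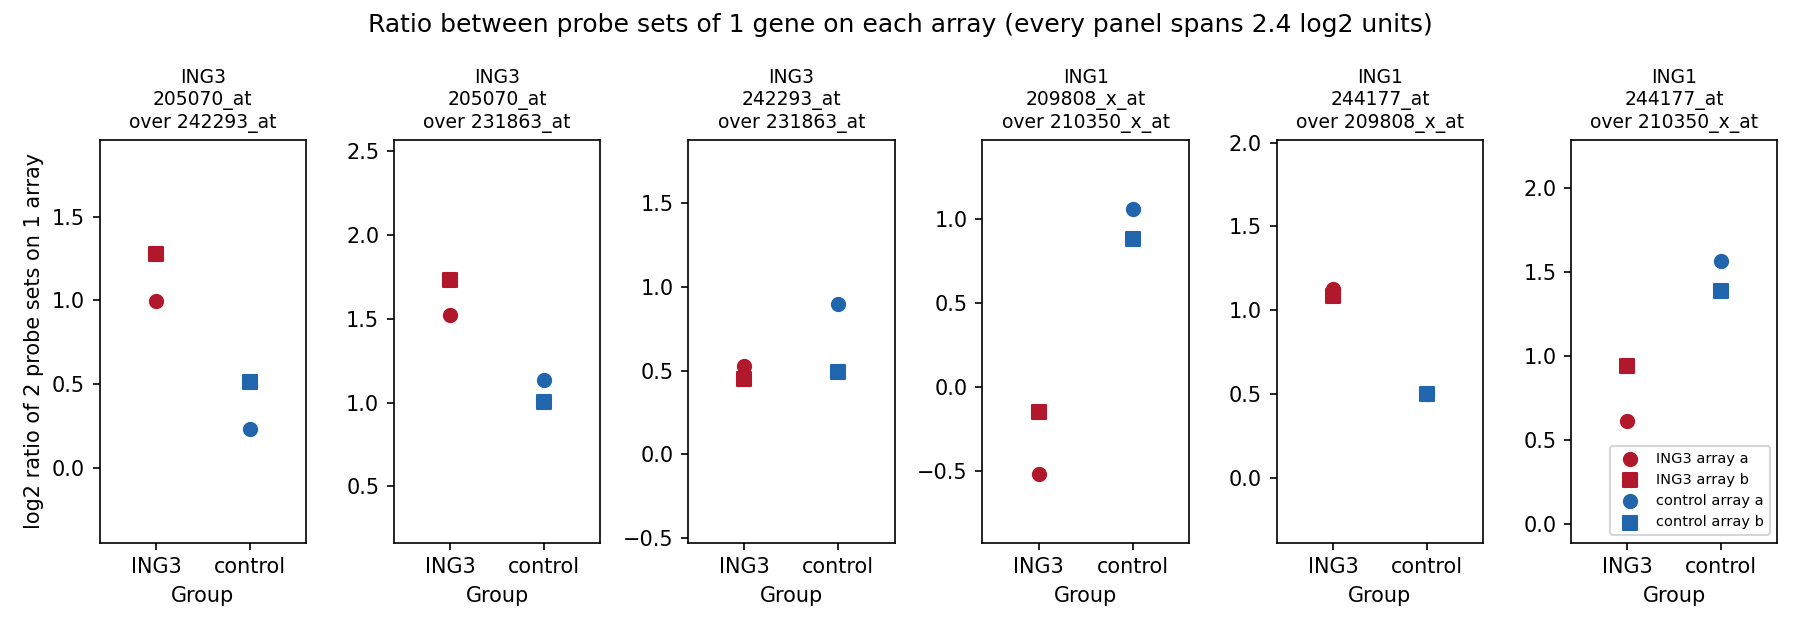
Log2 ratio between probe sets of 1 gene on each array, for ING3 (3 panels on the left) and ING1 (3 on the right), with ING3 arrays in red on the left and control arrays in blue on the right; each panel covers the same number of log2 units. The ratio of 205070_at to either other tested ING3 probe set is higher on both ING3 arrays, and the ratio of 209808_x_at to 210350_x_at is lower on both ING3 arrays.

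ING2, the other family member of SIN3-HDAC complexes, had slightly higher signals in the ING3 cells on its brightest probe set. Probe set 205981_s_at had 591 and 567 on the ING3 arrays, against 488 and 504 on the control arrays. The groups did not overlap and the duplicates lay close together, with means of 579 ± 17.3 in ING3 cells and 496 ± 11.0 in control cells (SD, n = 2 each). The log2 difference was 0.22 (SE 0.12, 95% interval -0.041 to 0.49, adjusted p = 0.36 by limma), which did not pass. With the mean of both ING2 probe sets it was 0.10 (adjusted p = 0.85 by limma).

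The second ING2 probe set, 213544_at, lay under the brightness filter with 61.4 and 45.6 on the ING3 arrays and 65.2 and 44.1 on the control arrays. Its groups overlapped, with a log2 difference of -0.019.

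ING4, the subunit of HBO1 complexes, did not differ beyond the spread between duplicates on either probe set. Probe set 218234_at had 409 and 348 on the ING3 arrays, against 299 and 388 on the control arrays, and 48825_at had 333 and 348 on the ING3 arrays, against 331 and 381 on the control arrays. Both overlapped. The log2 differences were 0.15 (95% interval -0.25 to 0.54 in the gene fit, adjusted p = 0.71 by limma) and -0.061 (95% interval -0.41 to 0.29). The sign of each depended on 1 control array: without control array a the first was -0.041, and without control array b the second was 0.041. The second was also above 0 after quantile normalization, at 0.023, and after cyclic loess, at 0.028.

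ING5, which serves HBO1 and MOZ/MORF complexes, was read by 5 probe sets, of which 3 were tested. The brightest, 228287_at, had 596 and 721 on the ING3 arrays, against 685 and 793 on the control arrays. The groups overlapped, and the log2 difference was -0.17 (SE 0.13, 95% interval -0.46 to 0.12, adjusted p = 0.55 by limma). The size moved with single arrays: it was -0.031 without ING3 array a, -0.31 without ING3 array b, -0.27 without control array a and -0.064 without control array b. With the mean of all 5 probe sets it was -0.43 (adjusted p = 0.49 by limma). That mean takes in the probe sets under the brightness filter. Among them 241447_at had the largest difference of the 5 and weighed most in the mean.

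Probe set 223871_x_at had 267 and 286 on the ING3 arrays, against 262 and 238 on the control arrays, and was higher in ING3 cells by a log2 difference of 0.15 (95% interval -0.24 to 0.54). Probe set 229197_at had 113 and 89.8 on the ING3 arrays, against 136 and 134 on the control arrays, and was lower in ING3 cells with a log2 difference of -0.42 (95% interval -1.03 to 0.18). Neither pair of groups overlapped and neither difference passed, with adjusted p of 0.71 and 0.47 by limma over all probe sets.

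The other ING5 probe sets were dim. Probe set 241447_at had 16.9 and 11.7 on the ING3 arrays, against 46.5 and 50.0 on the control arrays, and both ING3 arrays were below both control arrays. The log2 difference of 241447_at was -1.71, with duplicates 0.49 log2 units apart on the ING3 arrays and 0.10 on the control arrays. All 4 values were under the brightness filter, where MAS5 signals vary widely, so no test was made. The last ING5 probe set, 228672_at, had 14.8 and 5.78 on the ING3 arrays and 10.8 and 7.96 on the control arrays, with overlapping groups.

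Across the family, 13 of the 17 probe sets passed the brightness filter and 0 were called, where 0.370% of all 27305 tested probe sets were called (limma, adjusted p under 0.05). At an unadjusted p under 0.05 there were 3, namely 205070_at of ING3 and the opposed pair of ING1, beside 15.7% of all tested probe sets. The groups did not overlap for 8 of the 13, beside 48.1% of all tested probe sets. In 5 of the 8 the ING3 cells were higher and in 3 lower, where 19.4% of all tested probe sets stood apart with higher and 28.8% with lower ING3 signals. The difference exceeded the gap between duplicates in both groups for 6 of the 13, beside 35.2% of all. No test was made of these shares, and nothing particular to the family is read from them. The median log2 difference was 0.018 for the 13 probe sets, beside -0.046 for all tested probe sets.

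At the level of genes 0 of 5 were called, beside 1.50% of 12190 genes, and ING3 was the one with an unadjusted p under 0.05, beside 17.7% of all. The median difference of the 5 genes was 0.15 and that of all tested genes -0.0074. In a culture, fewer cells that carry a transcript and less of it per cell cannot be told apart, and this holds for every difference given here.

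**Figure D3:**
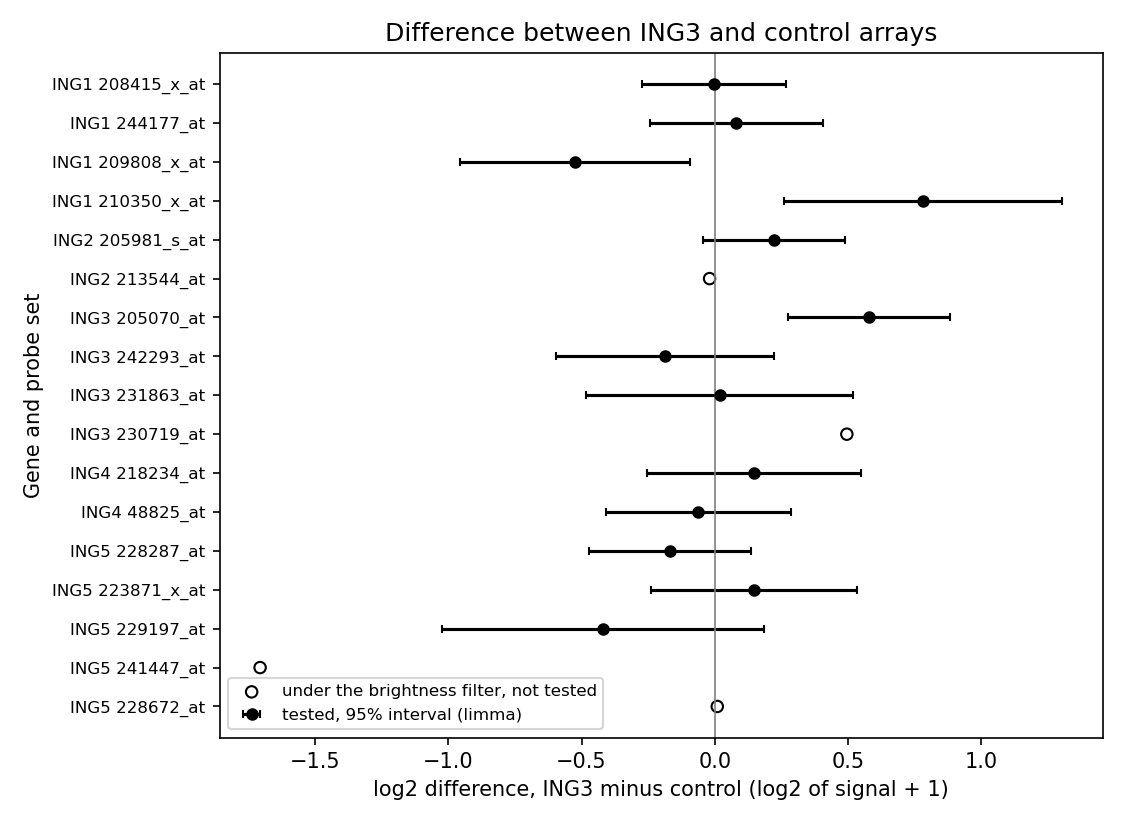
Log2 difference, ING3 minus control, of the 17 ING probe sets; filled points are tested probe sets with their 95% interval from limma, and open circles are probe sets under the brightness filter. The intervals of 205070_at of ING3 and of 210350_x_at and 209808_x_at of ING1 exclude 0 before adjustment, and those of the other 10 tested probe sets include it.

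Genes of 5 lists were read beside the family. They cover the complexes that hold ING proteins, namely TIP60/NuA4, SIN3-HDAC, and HBO1 and MOZ/MORF. The other lists hold regulators and targets of p53, and other genes that bind the same histone mark, and are not lists of ING partners. Of 69 listed genes, 65 were tested and the others were not analysed here; 0 rose, 1 fell and 64 were not called, beside 1.03% called higher and 0.476% called lower among all genes tested. Of the 65, 35 were higher on average in ING3 cells and 30 were lower, and the median log2 difference was 0.013. The groups did not overlap for 30 of the 65, beside 49.2% of all genes.

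In the TIP60/NuA4 complex, in which ING3 works, 0 of 18 genes were called, and the median log2 difference was 0.012. The catalytic acetyltransferase KAT5 had signals of 650 and 536 on the ING3 arrays, against 665 and 587 on the control arrays, with overlapping groups. The members with the largest differences were EP400, the ATPase that exchanges histone variants, at -0.28 (SE 0.11, adjusted p = 0.22 by limma), and EPC2, a scaffold protein, at 0.21 (SE 0.098, adjusted p = 0.30 by limma).

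In the SIN3-HDAC complexes of ING1 and ING2, 0 of 13 genes were called, with a median of 0.017. SIN3B, a scaffold of the complex, had signals of 283 and 282 on the ING3 arrays, against 371 and 456 on the control arrays. Both ING3 arrays were lower, with a log2 difference of -0.54 (SE 0.16) and a limma adjusted p of 0.13. SINHCAF, another subunit, had 6436 and 6801 on the ING3 arrays, against 5489 and 5618 on the control arrays.

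SINHCAF came close to the threshold at 0.25 on the log2 scale (SE 0.060) and a limma adjusted p of 0.076, but did not pass. The deacetylases themselves, HDAC1 and HDAC2, had log2 differences of -0.082 (95% interval -0.21 to 0.042) and 0.096 (95% interval -0.039 to 0.23).

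In the HBO1 and MOZ/MORF complexes of ING4 and ING5, 0 of 10 genes were called, with a median of 0.049 and a range of -0.13 to 0.12. The acetyltransferases KAT7, KAT6A and KAT6B had log2 differences of 0.12, 0.097 and -0.098, with SE of 0.099, 0.070 and 0.074. KAT7, the catalytic subunit of HBO1, was the member with the highest difference and BRPF3, a scaffold protein of HBO1 complexes, the one with the lowest, at -0.13 (SE 0.12).

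Among 11 tested regulators and targets of p53, 0 rose and 1 fell, with a median of -0.0032. TP53I3, a p53-inducible quinone oxidoreductase, had 1948 and 2056 on the ING3 arrays, against 3046 and 3009 on the control arrays, and fell by 0.60 on the log2 scale (SE 0.069, adjusted p = 0.0064 by limma). It was not called when either control array was left out, or by eBayes without an intensity trend. GADD45A, a growth arrest gene induced by DNA damage, had 6394 and 7721 on the ING3 arrays, against 5463 and 5374 on the control arrays. Its log2 difference was 0.37 (SE 0.084), with a limma adjusted p of 0.068, which did not pass.

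Among 14 other genes whose PHD fingers or related domains bind the same histone mark, 0 were called and the median was -0.060. The largest differences were those of PYGO2, a coactivator of WNT signalling, at -0.29 (SE 0.20), and of DIDO1 at -0.25 (SE 0.11), with adjusted p of 0.50 and 0.29 by limma.

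**Figure D4:**
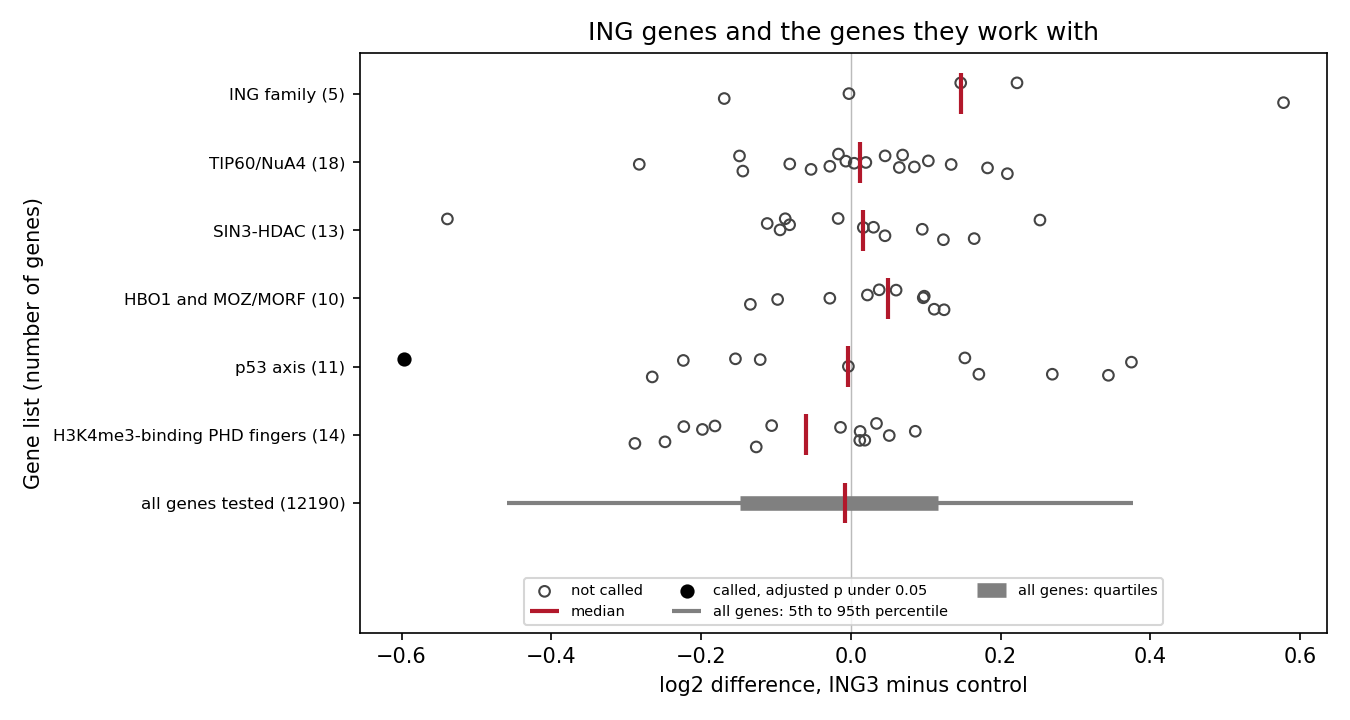
Log2 difference, ING3 minus control, of the 5 ING genes and of the tested genes of the 5 lists. The median of each list is in red. At the bottom are the quartiles and the 5th to 95th percentiles of all 12190 tested genes. ING3 is the rightmost point at 0.58, and TP53I3 at -0.60 is the filled point, the one called gene.

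The genes whose 4 signals followed the brightest ING3 probe set most closely were L3MBTL3, ARRDC1-AS1, UACA, NRXN2 and DNAL4, with distances of 0.014 to 0.041 between log2 profiles centred on their mean over the 4 arrays. L3MBTL3, a reader of methylated lysine, had signals of 338 and 352 on the ING3 arrays, against 221 and 241 on the control arrays. UACA, a coiled-coil protein, had 2784 and 2968 on the ING3 arrays, against 1824 and 2048 on the control arrays, and rose by a log2 difference of 0.57 (adjusted p = 0.014 by limma).

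The remaining 4, L3MBTL3, the antisense RNA ARRDC1-AS1, the neurexin NRXN2 and the dynein light chain DNAL4, were not called, with adjusted p of 0.12 to 0.34. Profiles over 4 arrays are short: 151 other genes correlated with ING3 at r of 0.99 or more, so the order is a description of these arrays only. UACA was picked for a profile near that of ING3, so its difference of 0.57, beside 0.58 for ING3, follows from that choice. Their SE were 0.080 and 0.13, and UACA passed the test while ING3 did not. The difference between them was not tested.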

How the data were processed

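Transcripts were measured on 4 one-colour Affymetrix arrays of MIA PaCa-2 cells, 2 per group, grouped by their titles. The deposited values are linear signal intensities that the authors computed by MAS5 in Affymetrix Expression Console (named, without a version, in the submitters' processing notes). No detection calls were used. MAS5 subtracts mismatch signals and scales each array by 1 factor. The table held 54675 probe sets, of which 62 control probe sets were left out.

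GEO's annotation gave 41097 probe sets 1 symbol, 1801 several, and left 11777 unnamed; looking symbols up by gene ID in RefSeq (GRCh38.p14) changed 0. Signals were transformed as log2(signal + 1), which understates changes of dim genes. The brightest probe set of a gene (highest mean log2) stood for it. Genes (12190) and probe sets (27305) whose mean reached the median of all probe sets were fitted with limma 3.58.1 in R 4.3.3 (lmFit, eBayes with an intensity trend, two-sided, no covariates, 2 residual and 7.35 prior degrees of freedom in the gene fit), adjusted by Benjamini-Hochberg over all, and called under 0.05. The fit was run on data simulated from its own fitted variances, which cannot show whether that model holds for these arrays.

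The members, the 5 gene lists and the rule for naming genes were chosen with earlier results of these data known. The rule named every ING probe set, the catalytic subunits, the called members and the 2 largest differences of each list, and the 5 nearest profiles. Alternatives were another pseudocount, normalization, variance model, filter and gene summary, left-out arrays and a block.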

Additional observations from a re-analysis of the deposited data

How the results depend on the processing

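The array letters a and b recur in both groups, but nothing says that they pair arrays, and the differences between a and b correlated at r = 0.029 between the groups across genes. With the letter as a replicate block, 442 genes and 670 probe sets were called. Among them were 1 ING gene and 1 ING probe set (ING3 and its 205070_at, log2 difference 0.58, adjusted p = 0.040 and 0.048 by limma), and 3 listed genes. The ING3 difference was positive in all 13 alternatives run, but several of these could not change it. The other variance model, the other filters, the block and leaving out _s_at and _x_at probe sets read the same 205070_at signals. They returned the same 0.58, so their sign adds nothing. In the remaining alternatives it was 0.51 to 0.65 with 1 array left out and 0.23 to 0.66 otherwise. With no array left out, the adjusted p by limma was 0.040 to 0.66, under the threshold only with the block. Elsewhere 0 ING genes or probe sets were called.

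Against 183 genes and 101 probe sets called, eBayes without an intensity trend called 0 of each, and 0 listed genes. At an unadjusted limma p under 0.05 that model had 1686 genes and 3547 probe sets. Without a filter 54 genes and 10 probe sets were called, and after quantile normalization 115 genes. With mean probe sets 37 genes, 2 of them listed, were called, and without _s_at and _x_at probe sets 100 genes. With 1 array left out, 2 to 305 genes, 0 to 52 probe sets and 0 to 3 partner genes were called. Without _s_at and _x_at probe sets 0 listed genes were called, where the _s_at probe set that read TP53I3 was left out.

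The sign turned for differences near 0. ING1 was 0.0013 after quantile normalization, 0.0092 after cyclic loess, 0.084 with mean probe sets and 0.080 without _s_at and _x_at probe sets, and -0.17 to 0.16 with 1 array left out. With 1 array left out, ING4 was -0.041 to 0.33, its 48825_at -0.16 to 0.041 (0.023 after quantile normalization, 0.028 after cyclic loess) and 231863_at of ING3 -0.12 to 0.15. The causes were not tested.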
